A study of Macaca mulatta with 24 samples.

Results

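The ileal bile acid circuit was followed through 5 genes in the jejunum of rhesus macaques after total-body irradiation (TBI): FABP6, SLC10A2, FGF19, NR1H4 and NR0B2. They were picked by their symbol in the normalized jejunum table, out of 16177 symbols. Each had 1 probe among the 43603 on the array, and all 5 probes were among the 28171 tested, which a probe entered if some group had it above background throughout. SLC10A2 entered only through the day 12 groups, 1 of which had its highest mean, and FGF19 only through 6.7 Gy day 12, where its mean was highest. The animals were young adult males, and each array held RNA from an unpooled piece of whole gut wall. The control group (4 arrays, dose 0 Gy, labelled day 4) was sham-irradiated. The other groups received a single uniform cobalt-60 gamma dose of 6.7 Gy or 7.4 Gy and were sampled on day 4 (4 arrays per dose), day 7 (4 per dose) or day 12 (2 per dose). The same control arrays served every comparison, so the day 7 and day 12 groups were set against controls of another day.

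Bile acids are made in the liver, secreted into the duodenum and taken back in the terminal ileum. There the apical transporter SLC10A2 brings them into the enterocyte and FABP6, the ileal bile acid binding protein, carries them through the cytosol. Inside the cell they activate the nuclear receptor NR1H4 (FXR), whose targets include FABP6, the hormone gene FGF19, which signals to the liver to lower bile acid synthesis, and NR0B2 (SHP), a repressor that in turn lowers SLC10A2 and bile acid synthesis genes. FABP6 and SLC10A2 are textbook markers of the ileum and are low in normal jejunum.

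Levels are given as log2 signal, after background subtraction, relative to the 75th percentile of the same array, so 0 is a bright probe and each unit is a doubling. A level of one probe is never compared with that of another, since probes differ in brightness. The 5 genes were chosen with earlier results of these data known. Their changes from control are therefore a description, from which no support is drawn. Between 39.4% and 87.7% of all probes were well above background per array. Detection was poorest on slide 5, whose lowest detected signal ran from 130 to 277, compared with 7.03 to 83.0 elsewhere. That slide carried replicate 1 after 6.7 Gy on day 4, replicate 3 after 7.4 Gy on day 4, and replicates 1 after 7.4 Gy on days 7 and 12.

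FABP6 carried the widest change. Its level in the 4 control arrays was -2.19, -1.25, -2.70 and -2.40. On day 4 it was 4.97, 4.44, 2.38 and -0.44 after 6.7-Gy TBI. After 7.4 Gy on day 4 it was 5.88, 3.12, -0.34 and 1.26. All 8 day 4 arrays lay above every control array, as did those of 6.69% and 7.28% of all probes at the lower and higher dose, but they spread over 5.41 and 6.22 log2 units within the 2 doses, against 1.45 in control.

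On day 7 FABP6 read -0.85, -1.87, 3.22 and -0.64 after 6.7 Gy. After 7.4 Gy it read -2.05, 1.78, -1.63 and -1.83 on that day. In both groups 1 array stood high and at least 1 lay within the control range, so the groups overlapped control. On day 12 both arrays after 6.7 Gy were high, at 5.29 and 5.00, and both after 7.4 Gy were intermediate, at 1.22 and 0.95. Of the 20 irradiated arrays, 16 lay above all control arrays and 0 lay below them. The share of all probes with such a count was not worked out.

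The differences of FABP6 from control, as log2 difference ± SE of the limma fit, were 4.97 ± 1.04 (31.4-fold) at the lower dose and 4.61 ± 1.13 (24.5-fold) at the higher dose on day 4. On day 7 these differences were 2.10 ± 0.94 and 1.20 ± 0.79. On day 12 they were 7.28 ± 0.39 (155-fold) after 6.7 Gy and 3.22 ± 0.40 (9.30-fold) after 7.4 Gy. The 7.4-Gy arrays of day 12 were on slides 5 and 6, scanned on the second day. All control arrays were on slides 1 to 4, scanned on the first. That difference therefore cannot be told apart from slide or scan day. The FABP6 probe was well above background on all 24 arrays, with signals from 128 to 57389, so these differences do not rest on undetected spots.

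**Figure D1:**
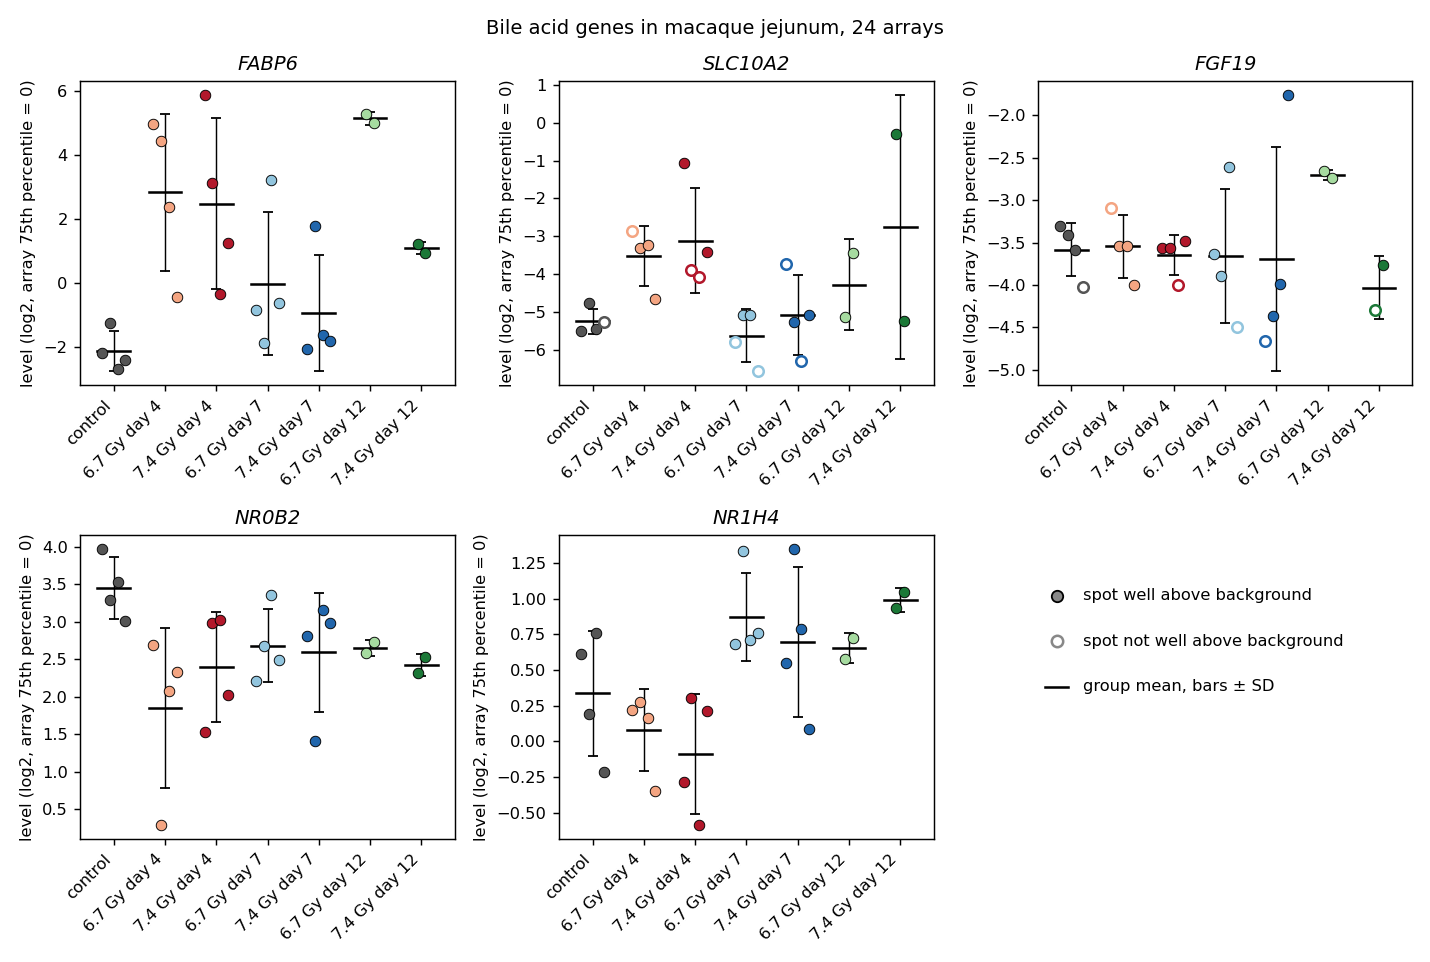
Level of the 5 genes on each of the 24 arrays by group (vertical axis, log2 signal with the array's 75th percentile at 0; each panel has its own scale). Filled points are spots well above background, open points are not, and lines with bars are the group mean ± SD (n = 4, or 2 on day 12). FABP6 sits between -2.70 and -1.25 in control and reaches 5.88 on day 4, while NR0B2 is highest in control.

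The order of the FABP6 group means was 6.7 Gy day 12 (5.15 ± 0.20, SD, n = 2), 6.7 Gy day 4 (2.84 ± 2.45, n = 4), 7.4 Gy day 4 (2.48 ± 2.67, n = 4), 7.4 Gy day 12 (1.08 ± 0.19, n = 2), 6.7 Gy day 7 (-0.03 ± 2.24, n = 4), 7.4 Gy day 7 (-0.93 ± 1.82, n = 4) and control (-2.13 ± 0.63, n = 4). Each group overlapped its neighbour in this order except the highest, whose lower array (5.00) was just above the highest array of 6.7 Gy day 4 (4.97), a separation that 19.2% of all probes showed. The pooled SD within irradiated groups was 2.15, against 0.63 in control.

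Slides 1 to 4 each held 1 control array and 3 irradiated arrays. Against the control array of its own slide, FABP6 was higher on 10 of 12 irradiated arrays, with differences from -0.62 to 8.58 and a median of 3.17. The share of all probes with such a count was not worked out here either. On slide 3 the differences were 8.58 (7.4 Gy day 4), 5.92 (6.7 Gy day 7) and 7.99 (6.7 Gy day 12). On slide 2 they were only 0.81 (6.7 Gy day 4), -0.62 (6.7 Gy day 7) and -0.58 (7.4 Gy day 7). With slide as a fixed block the day 4 differences became 2.69 after 6.7 Gy and 7.05 after 7.4 Gy, and the day 7 difference after 7.4 Gy became -0.01. With slide as a random block these values were 4.56, 4.89 and 1.12.

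SLC10A2, the apical uptake transporter, was a dim probe. It was well above background on 16 of 24 arrays, namely 3 of 4 control arrays, 3 of 4 after 6.7 Gy and 2 of 4 after 7.4 Gy on day 4, 2 of 4 in each day 7 group and 2 of 2 in each day 12 group. The control arrays read -5.50, -4.77, -5.45 and -5.27, and its day 4 arrays read -2.86, -3.30, -3.22 and -4.67 after 6.7 Gy. After 7.4 Gy on day 4 it read -1.07, -3.89, -4.08 and -3.41. All 8 day 4 arrays were above all control arrays, the nearest by 0.10 on the same slide. The same held within a dose for 6.69% of all probes after 6.7 Gy and 7.28% after 7.4 Gy.

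The day 7 levels of SLC10A2 were -5.78, -5.08, -5.08 and -6.57 after 6.7 Gy, 2 of them within the control range and 2 below it. After 7.4 Gy they were -3.72, -5.27, -6.30 and -5.09, and the highest of these was a spot not well above background on slide 5. The day 12 arrays disagreed with each other, at -5.13 and -3.44 after 6.7 Gy and at -0.29 and -5.23 after 7.4 Gy. The level of -0.29 was the highest of the 24 arrays and came from slide 5, where the spot was well above background.

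The log2 differences of SLC10A2 from control on day 4 were 1.73 ± 0.37 (3.32-fold) at the lower dose and 2.13 ± 0.60 (4.38-fold) at the higher. They were -0.38 ± 0.34 and 0.15 ± 0.47 on day 7, and 0.96 ± 0.46 and 2.49 ± 1.19 on day 12. Without 1 or the other array of the group, the day 12 value became 0.12 or 1.81 after 6.7 Gy and, after 7.4 Gy, 0.02 (without the slide 5 array) or 4.96. Raising all signals to a common detection floor reduced the day 4 differences to 0 and 0.20, since most SLC10A2 signals were below that floor.

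FGF19, the hormone gene downstream of NR1H4, did not share the day 4 pattern. Its level was -3.30, -3.41, -3.59 and -4.02 in control. On day 4 the 8 irradiated arrays read from -4.0 to -3.10, and the differences from control were 0.04 ± 0.23 after 6.7 Gy and -0.07 ± 0.20 after 7.4 Gy. Single arrays stood high on day 7, at -2.60 (6.7 Gy, replicate 3) and -1.76 (7.4 Gy, replicate 4). On day 12 both arrays after 6.7 Gy (-2.66 and -2.74) were above all controls, as for 10.1% of all probes, while those after 7.4 Gy read -4.29 and -3.77. FGF19 was well above background on 18 of 24 arrays.

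NR0B2, the repressor, went the other way from FABP6. The control arrays read 3.98, 3.29, 3.53 and 3.01. On day 4 it read 2.69, 0.29, 2.08 and 2.33 after 6.7 Gy, all below control. After 7.4 Gy it read 1.54, 2.99, 3.02 and 2.03, the third of which reached the lowest control. The differences from control were -1.60 ± 0.48 and -1.06 ± 0.36 on day 4, -0.77 ± 0.28 and -0.86 ± 0.38 on day 7, and -0.80 ± 0.28 and -1.03 ± 0.29 on day 12, with 6.7 Gy first. In all, 17 of 20 irradiated arrays lay below every control array, and on slides 1 to 4 all 12 irradiated arrays lay below the control array of their slide, by 0.02 to 1.99 log2 units. The share of all probes with such counts was not worked out, so nothing is read from them. By group, every array was below every control array for 7.66% and 10.1% of all probes on day 4. On day 12 these shares were 7.43% and 9.5%, with 6.7 Gy first. The lowest level, 0.29, was 12.8-fold under the highest. NR0B2 was well above background on all 24 arrays.

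NR1H4, the bile acid receptor itself, stayed within a 3.83-fold range over the 24 arrays, all well above background. Control arrays read 0.61, 0.19, 0.76 and -0.21. Its day 4 arrays read from -0.58 to 0.31 and its day 7 arrays from 0.09 to 1.35, and the day 12 levels were 0.58 and 0.73 at the lower dose, within the control range, and 0.93 and 1.05 at the higher dose, above it. The differences from control were -0.26 ± 0.24 and -0.42 ± 0.27 on day 4, 0.53 ± 0.25 and 0.36 ± 0.30 on day 7, and 0.32 ± 0.29 and 0.65 ± 0.30 on day 12.

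At an adjusted p under 0.05 and 2-fold or more, the limits applied to all probes, FABP6 and SLC10A2 passed as higher after 6.7 Gy on day 4, where 1.98% of the 28171 probes passed (1.25% higher, 0.731% lower). After 7.4 Gy on day 4, 0 of 5 passed, where 2.6% of probes did (1.71% higher, 0.887% lower). On day 12 FABP6 passed as higher after 6.7 Gy (0.0071% of probes), and 0 of 5 passed after 7.4 Gy (0.00355%). On day 7, 0 of 5 passed at either dose (0.0639% and 0.288% of probes called in either direction). These counts restate the contrasts the genes were picked from, and nothing is read from them. With 1 array left out at a time, FABP6 after 6.7 Gy on day 4 passed in 1 of 8 fits and SLC10A2 in 1 of 8. After 7.4 Gy each of these 2 genes likewise passed in 1 of 8 fits on day 4 and in 1 of 6 on day 12. FABP6 on day 12 after 6.7 Gy passed in 4 of 6. The share of all probes with every array above every control was 6.69% and 7.28% on day 4 and 10.1% and 8.51% on day 12, with 6.7 Gy first, and the share with every array below was 7.66%, 10.1%, 7.43% and 9.5% in the same order of groups.

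The differences between doses and between days were tested, with limma on all 24 arrays and adjustment over all 28171 probes. They compare irradiated arrays already described above, and the shared spread comes from all 7 groups, control included. The 5 genes were chosen with earlier results of these arrays known, so their values here are a description too. No support is drawn from their intervals or adjusted p. None of FABP6, NR1H4 and NR0B2 passed in any of the 7 comparisons, nor SLC10A2 in the 4 without a day 12 group, through which its probe entered, and FGF19 is given as values only. At equal days, 7.4 Gy minus 6.7 Gy gave 0% of all probes called, and 671, 1714 and 1386 probes had an unadjusted p under 0.05 on days 4, 7 and 12, of which 78, 207 and 531 were also past 2-fold. For FABP6 the dose difference was -0.36 (95% interval -3.03 to 2.31, adjusted p = 1.00) on day 4 and -0.90 (-3.57 to 1.77, adjusted p = 0.909) on day 7. The day 4 difference changed direction with other choices, to 1.5 with position as a block, 1.29 without slide 5 and 3.52 on scan day 1 arrays alone, and ran from -1.49 to 0.58 with 1 array left out. On day 12 it was -4.06 (-7.84 to -0.28, adjusted p = 0.995), where both 6.7-Gy arrays were above both 7.4-Gy arrays, as for 19.9% of all probes. The 6.7-Gy arrays of day 12 were on slides 3 and 4, scanned on the first day, and the 7.4-Gy arrays on slides 5 and 6, scanned on the second. Fits in which arrays of other groups set the slide or scan day effect gave -2.92 with slide as a fixed block (adjusted p = 0.990), -3.75 when the slide block was random (0.989) and -4.49 when scan day was the block (1.00). These intervals are wide enough to hold large differences in either direction on days 4 and 7.

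Between days, 1.55% of probes were called on day 7 against day 4 after 6.7 Gy and 1.64% after 7.4 Gy, and 0.951% and 2.42% on day 12 against day 4. With only the compared groups in the fit, these calls fell from 436, 463, 268 and 681 probes to 149, 12, 0 and 4. FABP6 was lower on day 7 than on day 4 by point estimate, at -2.87 (95% interval -5.54 to -0.20, adjusted p = 0.203) after 6.7 Gy and -3.41 (-6.08 to -0.74, adjusted p = 0.131) after 7.4 Gy, and the groups overlapped at both doses. From day 4 to day 12 the FABP6 difference was 2.31 (-0.97 to 5.58, adjusted p = 0.454) after 6.7 Gy and -1.39 (-4.67 to 1.88, adjusted p = 0.681) after 7.4 Gy.

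SLC10A2 gave values of the same sign on day 7 against day 4, at -2.11 (-3.82 to -0.41, adjusted p = 0.140) after 6.7 Gy and -1.98 (-3.68 to -0.27, adjusted p = 0.172) after 7.4 Gy. After 6.7 Gy all 4 day 7 arrays were under all 4 day 4 arrays, as for 5.45% of all probes. With normexp background correction the differences were -0.64 and -1.06 at the lower and higher dose, and with a common floor 0 and -0.20. NR1H4 gave the opposite sign. It was 0.79 (0.25 to 1.34, adjusted p = 0.0874) and 0.78 (0.23 to 1.33, adjusted p = 0.0903) higher on day 7 than on day 4 at the lower and higher dose. On day 12 against day 4 it was 0.58 (-0.09 to 1.24, adjusted p = 0.357) after 6.7 Gy and 1.08 (0.41 to 1.75, adjusted p = 0.0620) after 7.4 Gy. For FGF19 7.4 Gy minus 6.7 Gy was -1.33 on day 12, a comparison that involves the group through which its probe entered and so is given with no test. Of the 7.4-Gy arrays 1 of 2 was well above background for it. With a common floor for dim spots both day 12 groups differed from control by 0, and with quantile normalization 7.4 Gy differed by -1.76 in place of -0.45. For NR0B2 the adjusted p ran from 0.316 to 1.00 over the 7 comparisons.

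Across the 24 arrays, FABP6 and SLC10A2 varied partly together. Pearson's r was 0.54 and Spearman's rho 0.58. Without the 2 arrays farthest from the FABP6 median r was 0.53, after subtraction of group means it was 0.39, and without slide 5 (20 arrays) it was 0.69. Of the other tested probes, 194 were more like FABP6 than SLC10A2 was. FABP6 with NR0B2 gave r = -0.51 (rho -0.50), and -0.34 within groups. FABP6 with FGF19 gave r = 0.33 and with NR1H4 r = -0.08. These 4 relations are descriptions over arrays that share slides, the controls and the 75th-percentile scaling. FABP6 had r = -0.10 with the share of probes detected per array, and SLC10A2 had r = -0.41.

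**Figure D2:**
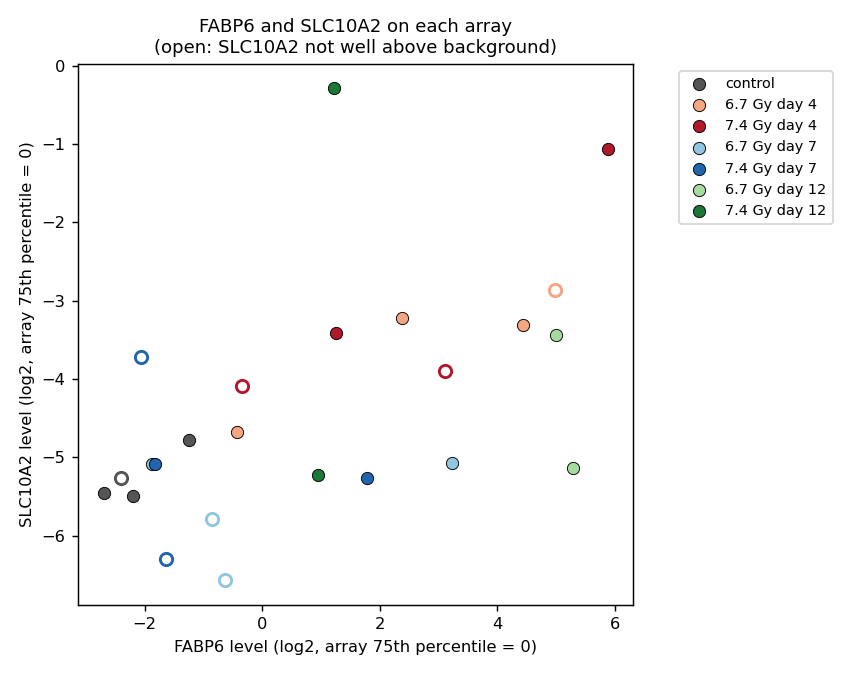
FABP6 level (horizontal) against SLC10A2 level (vertical) on each of the 24 arrays, both log2 with the array's 75th percentile at 0, coloured by group; open points are arrays on which the SLC10A2 spot was not well above background. Control arrays lie at the lower left, and the array with the highest SLC10A2 (-0.29, 7.4 Gy day 12) has a FABP6 level of only 1.22.

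Of 26 further bile acid genes listed, 21 were on the array and 14 were tested. Against control 0 of 14 passed as higher in any group and 1 of 14 passed as lower. With 1.25% and 1.71% of all probes higher and 0.731% and 0.887% lower on day 4, so few calls among 14 genes do not show whether they followed FABP6. The gene that passed was SULT2A1, which sulfates bile acids and steroids and fell by 1.33 ± 0.26 after 6.7 Gy on day 4 (adjusted p = 0.0296), a call lost in 6 of 8 fits with 1 array left out. The median of the 14 was -0.34 and -0.30 on day 4 at the lower and higher dose, against -0.06 and -0.08 over all probes tested, and 0.19 and -0.17 on day 12, against 0.03 and -0.02.

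SLC51B, a subunit of the basolateral transporter that passes bile acids on to the blood and another NR1H4 target, read -0.22 ± 0.22 and 0.11 ± 0.15 against control on day 4 (adjusted p = 0.595 and 0.700). It read 0.82 ± 0.20 and 0.33 ± 0.20 on day 7 (adjusted p = 0.175 and 0.444), and 0.91 ± 0.23 and 1.1 ± 0.23 on day 12 (adjusted p = 0.522 and 0.381). Between days it was up-regulated after 6.7 Gy, by 1.04 ± 0.22 from day 4 to day 7 (adjusted p = 0.0130) and by 1.13 ± 0.27 from day 4 to day 12 (adjusted p = 0.0454). NR5A2, a nuclear receptor partner of NR0B2, was higher on day 12 than on day 4 by 1.37 ± 0.30 after 6.7 Gy (adjusted p = 0.0310) and 1.12 ± 0.30 after 7.4 Gy (adjusted p = 0.0451). NR5A2 had 4 probes, and the brightest stood for it. Against control after 6.7 Gy it read -0.74 on day 4 and 0.63 on day 12, and after 7.4 Gy -0.77 and 0.35. The others read -0.54, -0.61 and 0.06 on day 4 after 6.7 Gy and 0.27, 0.39 and 0.20 on day 12. After 7.4 Gy they read -0.53, -0.54 and -0.01, then 0.47, 0.33 and 0.05. Each of them thus rose less from day 4 to day 12 than the brightest. Over all lists 27 calls of 19 genes were made between days, and with only the compared groups in the fit 3 of the 27 remained, those of GCG, S100G and SLC26A2 from day 4 to day 7 after 6.7 Gy, so every other difference between days given here for a listed gene rests on the spread shared by all 24 arrays.

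The intracellular lipid binding proteins carry fatty acids, retinoids or bile acids through the cytosol, and 8 relatives of FABP6 were tested. On day 4, 2 of 8 fell at each dose (0.731% and 0.887% of all probes did), and 0 of 8 passed as higher (1.25% and 1.71% of all probes). The medians were -0.26 and -0.35. FABP1, the liver-type fatty acid binding protein that is abundant in jejunum, fell by 1.56 ± 0.19 after 6.7 Gy (adjusted p = 0.00754) and 1.23 ± 0.18 after 7.4 Gy (adjusted p = 0.0129). RBP2, the enterocyte retinol carrier, fell by 1.5 ± 0.14 (adjusted p = 0.00296) and then by 1.44 ± 0.18 (adjusted p = 0.00788). Every day 4 array lay below every control array for both genes. Within a dose this held for 7.66% of all probes after 6.7 Gy and 10.1% after 7.4 Gy. From day 4 to day 7 after 6.7 Gy, RBP2 was higher by 1.06 ± 0.27 (adjusted p = 0.0335). RBP5, another retinol carrier, had the sign of FABP6 on day 4, at 1.28 ± 0.36 and 1.47 ± 0.43 (adjusted p = 0.0840 and 0.0829), and fell from day 4 to day 12 after 7.4 Gy by 2.28 ± 0.64 (adjusted p = 0.0497). FABP1 was among the 5 symbols most opposite to FABP6, with r = -0.73 over 24 arrays and -0.67 after subtraction of group means.

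Of 9 genes of the distal small bowel other than the bile acid genes, 0 passed as higher against control and 1 as lower on day 4, at both doses. It was PYY, a hormone gene of distal enteroendocrine cells, which fell by 1.37 ± 0.27 after 6.7 Gy (adjusted p = 0.0327) and 1.54 ± 0.31 after 7.4 Gy (adjusted p = 0.0293), calls lost in 7 and 6 of 8 fits with 1 array left out. Over all probes 1.25% and 1.71% were higher and 0.731% and 0.887% lower on day 4. The median of the 9 against control was 0.29 and 0.21 on day 4, 0.17 and -0.28 on day 7, and 0.59 and 0.42 on day 12 (over all probes -0.06 and -0.08 on day 4, and 0.03 and -0.02 on day 12). Their summed level per array overlapped between control (5.92 to 6.02) and day 4 (5.50 to 6.35 after 6.7 Gy, 5.51 to 6.29 after 7.4 Gy). Here and below, a summed level is the log2 of the added signals of a list, in which bright probes weigh most. On day 12 it was 6.05 to 6.55 after 6.7 Gy, above control, and 5.95 to 6.08 after 7.4 Gy, overlapping control.

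CUBN, part of the ileal vitamin B12 receptor, read 0.98 ± 0.34 and 0.68 ± 0.33 on day 4 (adjusted p = 0.142 and 0.234). NTS, the gene of neurotensin, made mostly in ileum, read 0.78 ± 0.53 and 0.45 ± 0.53 (adjusted p = 0.428 and 0.640), and both day 12 groups (2.93 and 3.03, and 1.96 and 2.49) had levels above all control arrays (-0.58 to 1.90). Such a separation on day 12 held for 10.1% of all probes after 6.7 Gy and 8.51% after 7.4 Gy, and NTS did not pass in either group. GCG, the proglucagon gene of distal enteroendocrine cells, read 0.29 ± 0.38 and 0.07 ± 0.42 on day 4, 1.54 ± 0.40 and 1.34 ± 0.43 on day 7 and 1.58 ± 0.52 and 1.46 ± 0.53 on day 12 (adjusted p from 0.187 to 0.941). The r with FABP6 was positive for 8 of the 9, up to 0.69 for CUBN and 0.67 for NTS, with a median of 0.35 against -0.02 over all probes. It was positive for 13375 of all 28170 other tested probes. All 4 smooth muscle genes and all 3 of pancreas and liver were positive too.

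Between days, calls in the distal list went both ways. From day 4 to day 7, GCG was higher by 1.24 ± 0.35 after 6.7 Gy (adjusted p = 0.0490) and 1.28 ± 0.35 after 7.4 Gy (adjusted p = 0.0413), and PYY by 1.23 ± 0.35 (adjusted p = 0.0478) and 1.6 ± 0.35 (adjusted p = 0.0138). PYY was also higher on day 12 than on day 4, by 1.96 ± 0.42 and 1.97 ± 0.42 (adjusted p = 0.0278 and 0.0185). NTS fell from day 4 to day 7 after 7.4 Gy by 1.86 ± 0.53 (adjusted p = 0.0467), as did the amino acid transporter SLC6A19, by 1.29 ± 0.35 (adjusted p = 0.0365).

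Of 16 genes typical of duodenum and jejunum, 4 fell after 6.7 Gy and 6 fell after 7.4 Gy on day 4 (0.731% and 0.887% of all probes did), 12 and 10 did not pass, and 0 rose. The medians were -0.83 and -0.63 on day 4, against -0.06 and -0.08 over all probes. Their summed level ran from 9.08 to 9.87 in control, 7.66 to 8.22 after 6.7 Gy and 7.30 to 8.25 after 7.4 Gy on day 4, with no overlap with control. It overlapped control on day 7 (8.58 to 9.62 and 7.67 to 9.76) and lay below it on day 12 (7.93 to 8.47 and 8.45 to 8.56). S100G was among the brightest of these probes, so its fall weighs heavily in the sum. The unweighted mean change of the 16 from the control mean ran from -0.38 to 0.47 on control arrays. On day 4 it ran from -1.16 to -0.84 after 6.7 Gy and from -1.04 to -0.94 after 7.4 Gy. S100G, a calcium carrier of the duodenal enterocyte, fell by 3.33 ± 0.39 (adjusted p = 0.00654) and 3.76 ± 0.51 (adjusted p = 0.0101). ADA, adenosine deaminase, fell by 3.59 ± 0.56 (adjusted p = 0.0165) and 3.38 ± 0.57 (adjusted p = 0.0176). The hormone gene GIP fell by 2.21 ± 0.33 (adjusted p = 0.0147) and 2.78 ± 0.38 (adjusted p = 0.0101). ONECUT2, a transcription factor, and MLN, the gene of motilin, passed as lower after 7.4 Gy and not after 6.7 Gy. The MLN call was lost in 6 of 8 fits with 1 array left out and the ONECUT2 call in 0 of 8, and whether the doses differ for them was not shown, since 0 probes passed between doses. With slide as a fixed block, 0 of the 96 listed genes tested passed against control on day 4 at either dose. Only 5 of all 28171 probes passed in that fit after 6.7 Gy and 0 after 7.4 Gy, so this is not particular to the listed genes. Of the 16, 13 had a negative r with FABP6 and 3 a positive one. Over all 28170 other tested probes 14795 were negative.

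Between days, S100G rose again from day 4 to day 7 by 2.96 ± 0.58 at both doses (adjusted p = 0.00832 and 0.00844), and GIP from day 4 to day 12 after 7.4 Gy by 2.39 ± 0.62 (adjusted p = 0.0378). CYBRD1, a duodenal iron reductase, read -1.24 ± 0.39 and -0.45 ± 0.29 against control on day 4 and 1.06 ± 0.43 and 0.66 ± 0.47 on day 12 (adjusted p from 0.112 to 0.714), and rose from day 4 to day 12 after 6.7 Gy by 2.30 ± 0.48 (adjusted p = 0.0242). SLC11A2, the apical iron importer, read 0.17 ± 0.41 and 0.62 ± 0.37 on day 4 (adjusted p = 0.847 and 0.342) and fell from day 4 to day 12 after 7.4 Gy by 1.4 ± 0.38 (adjusted p = 0.0465).

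GATA4, a transcription factor of duodenum and jejunum whose loss from mouse gut epithelium is known to turn on ileal bile acid genes there, had a control mean of -1.60 ± 0.35 (SD, n = 4). It fell by 1.01 ± 0.21 after 6.7 Gy (adjusted p = 0.0356) and 1.20 ± 0.22 after 7.4 Gy (adjusted p = 0.0215) on day 4, with every day 4 array (-3.06 to -2.33) below every control array (-1.84 to -1.08). The call after 6.7 Gy, which is barely past 2-fold, was lost in all 8 fits with 1 array left out, and that after 7.4 Gy in 3 of 8. After 7.4 Gy GATA4 rose again from day 4 to day 7 by 1.18 ± 0.23 (adjusted p = 0.00733). On day 12, where FABP6 was highest after 6.7 Gy, GATA4 read -2.33 and -1.77, overlapping control. Its r with FABP6 was -0.64 over 24 arrays and -0.40 within groups. Whether GATA4 has a part in the FABP6 levels was not tested.

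**Figure D3:**
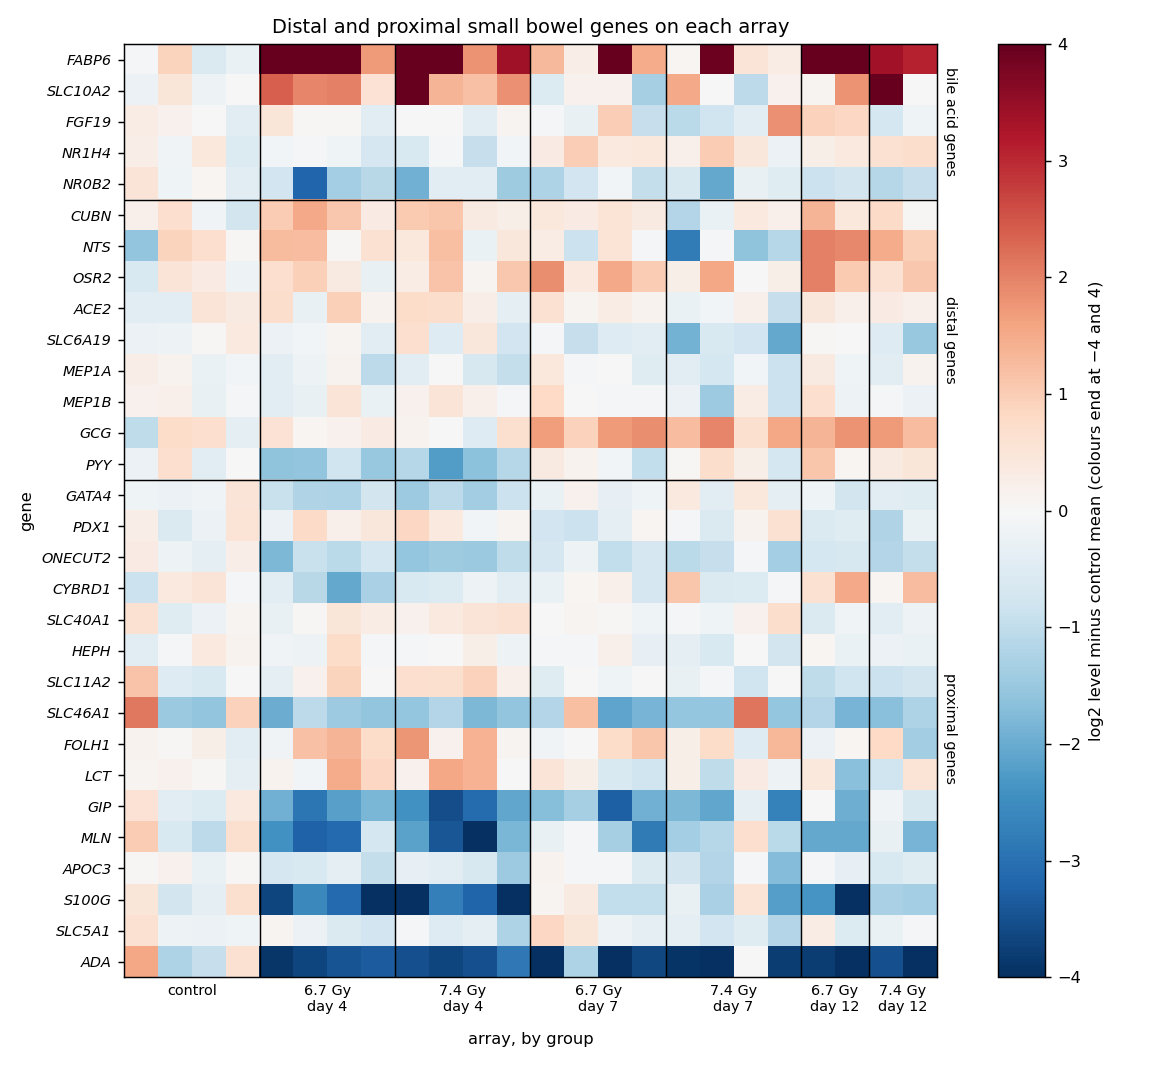
Level minus control mean (colour, log2, ending at -4 and 4) of the 5 bile acid genes, 9 distal and 16 proximal small bowel genes (rows) on each of the 24 arrays (columns, in replicate order within group). FABP6 is the reddest row, S100G, ADA, GIP and MLN are blue on most day 4 arrays, and FGF19 and NR1H4 stay near 0 there.

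Whole gut wall was sampled, so fewer cells of a type and less RNA per cell cannot be told apart. Of 11 absorptive enterocyte genes tested, 1 passed as lower after 6.7 Gy on day 4 (VIL1, the microvillus protein villin, which fell by 1.58 ± 0.33, adjusted p = 0.0358, a call lost in 7 of 8 fits with 1 array left out) and 0 passed in the other comparisons with control. From day 4 to day 7 after 7.4 Gy, ANPEP, a brush border peptidase, fell by 1.1 ± 0.25 (adjusted p = 0.0179) and APOB, the chylomicron protein, by 1.25 ± 0.31 (adjusted p = 0.0258). The summed level of the 11 overlapped between control (8.51 to 9.07) and day 4 (8.29 to 8.80 and 8.28 to 8.87). On day 7 it was 8.24 to 8.64 after 6.7 Gy, overlapping control, and 7.29 to 8.42 after 7.4 Gy, wholly below control. Of 6 colon genes 1 fell at both doses, the sulfate transporter SLC26A2. Lists of 1 to 11 genes are too short to set 0 or 1 call against the shares over all probes given above. Of 3 erythroid genes tested, 1 passed as lower on days 4 and 7 at both doses, and the list median was -0.45 and -0.54 on day 4. It was HBB, a beta-globin gene, with differences of -6.92 ± 0.55 and -6.38 ± 0.63 on day 4 and -8.17 ± 0.63 and -8.62 ± 0.60 on day 7 (adjusted p from 0.00142 to 0.00464), with 3, 1, 2 and 2 of 4 arrays well above background in these groups. A second HBB probe gave -7.63 and -7.77 on day 7. The r of HBB with FABP6 was -0.19. OLFM4, a crypt base gene, rose by 3.40 ± 0.33 after 7.4 Gy on day 4 (adjusted p = 0.00360) and read 1.66 ± 1.49 after 6.7 Gy (adjusted p = 0.557), and a crypt list of 5 genes had a median r of 0.02 with FABP6. The cycling genes TOP2A and CCNB1 of that list were higher on day 7 than on day 4 after 7.4 Gy, by 1.14 ± 0.31 and 1.13 ± 0.31 (adjusted p = 0.0400 and 0.0405), and the smooth muscle actin ACTA2 was lower, at -1.01 ± 0.25 (adjusted p = 0.0251). None of the tested genes of B cells (5), T cells (6), goblet and Paneth cells (5), smooth muscle (4), pancreas and liver (3) or stomach (1) passed against control. The genes with the smallest p were CD79B, FCER2, CXCR5 and CXCL13 of B cells (lowest adjusted p 0.0674), CD3G, IL7R, CD2 and CD3E of T cells (0.0646), AGR2, CLCA1, DEFA6 and LYZ of goblet and Paneth cells (0.0594), APOH, SERPINA1 and PRSS1 of pancreas and liver (0.141) and PGC of stomach (0.438). The part of these cell types in the FABP6 levels was not tested.

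The 10 symbols whose level was most like FABP6 over the 24 arrays were GUCA2A (r = 0.81), SLC5A11 (0.79), C4H6orf64 (0.78), SORL1 (0.77), SLC6A20 (0.76), PRNP (0.73), ENDOD1 (0.70), CD9 (0.70), NPC1L1 (0.69) and CUBN (0.69). GUCA2A encodes guanylin, a gut peptide that drives fluid secretion. Its level was 2.78 to 3.71 in control, 3.50 to 5.25 and 4.43 to 5.06 on day 4, and 4.78 and 5.64 on day 12 after 6.7 Gy. The day 4 range after 6.7 Gy overlapped control. So did the other groups, at 2.35 to 4.0 and 1.96 to 3.88 on day 7 and 3.43 and 4.66 on day 12 after 7.4 Gy. SLC5A11 (an inositol transporter) was up-regulated by 4.44 ± 0.95 and 4.43 ± 0.78 on day 4 (adjusted p = 0.0416 and 0.0198) and SLC6A20 (a proline transporter) by 1.96 ± 0.39 and 2.02 ± 0.28 (adjusted p = 0.0324 and 0.0105). These 2 had the largest day 4 changes of the 10. The rest read from 0.17 (C4H6orf64) to 1.45 (GUCA2A) after 6.7 Gy and from 0.37 to 1.36 after 7.4 Gy. SLC5A11 did not pass against control later, at 2.45 ± 1.02 and 0.30 ± 0.84 on day 7 (adjusted p = 0.433 and 0.884) and 3.07 ± 0.82 and 0.23 ± 0.95 on day 12 (adjusted p = 0.532 and 0.955). SLC6A20 did not either, with adjusted p from 0.202 to 0.762. Since they were picked for likeness to FABP6, their changes follow from the choice in part.

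Other probes of the same symbols were less alike, with r = 0.02 for C4H6orf64, 0.13 for PRNP, 0.25 for CUBN and 0.09 and 0.65 for NPC1L1, and 0.22 to 0.24 for the other 3 of CD9. The symbols most opposite to FABP6 were RGS6 (-0.74), ANKRD22 (-0.74), FABP1 (-0.73), DMRTC1 (-0.73) and UQCRC2 (-0.73). After subtraction of group means the most alike were LOC717517 (0.84), GCNT3 (0.78), SLC5A11 (0.78), C4H6orf64 (0.76) and PPP2R5C (0.71). Of the 10 symbols most like FABP6, 2 were in the top 10 by this measure. For SLC10A2 the closest symbols were CAPN2 (0.83), NDST2 (0.81), JAKMIP1 (0.77), PDLIM7 (0.77) and TNRC6C (0.74), none of which is among the 10 of FABP6.

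**Figure D4:**
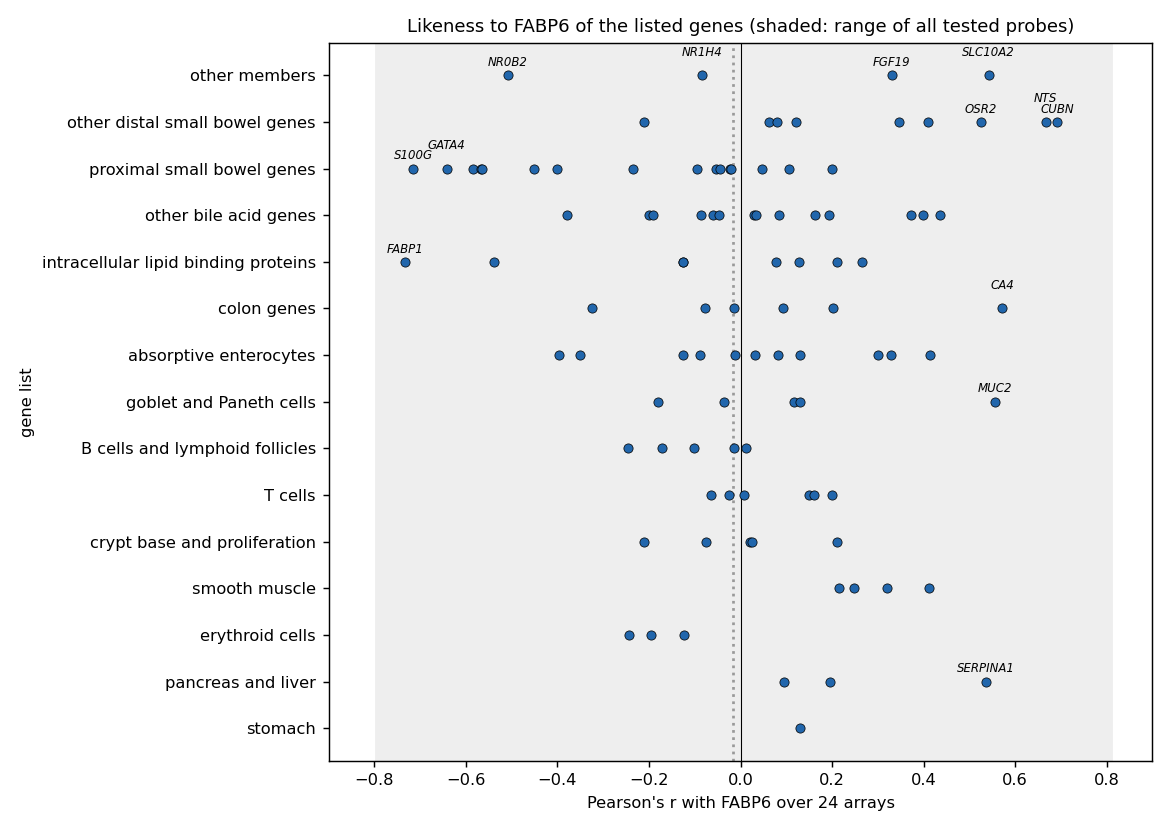
Pearson's r with FABP6 over the 24 arrays (horizontal) for each tested gene of the 14 lists and the other 4 members (1 point per gene, rows are lists); the shaded band spans all tested probes and the dotted line is their median (-0.02). Distal genes lie mostly right of 0, up to 0.69 for CUBN, and proximal genes mostly left, down to -0.71 for S100G. All smooth muscle and all pancreas and liver genes lie right of 0 as well, and all erythroid genes left.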

How the data were processed

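RNA from 24 jejunum samples was measured on 1-colour Agilent rhesus arrays, and 14 gene lists were compared with the 5 bile acid genes. Per the file headers, the authors extracted the spot intensities with Agilent Feature Extraction 11.0.1.1. The authors also deposited a GeneSpring table of log2 values scaled to each array's 75th percentile and, judged from the values, centred on each probe's median. Here control spots were dropped, spots of a probe averaged and log2 signals set relative to the array's 75th percentile. Each irradiated group was compared with control in limma 3.58.1 (R 4.3.3) on the arrays of both groups. Comparisons of doses and days came from 1 model of 24 arrays. P-values were Benjamini-Hochberg adjusted over 28171 probes and calls needed an adjusted p under 0.05 and a 2-fold change.

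The number of arrays limits the precision. Labels give no separate source for each array beyond its number. P-values measure the spread between these arrays. The members, lists and rules were chosen with earlier results of these data known. The genes to name were those called in any comparison, or else the 4 of a list with the smallest p against control, and the 10 most like FABP6. The brightest probe stood for a gene with several. Alternatives were normexp background (offset 50, on the median spot signal), other scalings, a common floor, no filter, slide, position, scan day and replicate number as blocks, the methods' t-test and leaving out each array. The fits were tested on simulated data. Deviations of same-numbered arrays from their group means correlated at r from -0.16 to 0.24. They were all positive for 6.7 Gy day 7 (0.095 to 0.24), whose arrays share slides 1 to 4 with the same-numbered controls, but no comparison had every pair over 0.1, so replicate numbers were not taken as pairs.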

Additional observations from a re-analysis of the deposited data

Results flagged for a closer look

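Of 25 sets of 4 arrays (5 genes in 5 groups), 3 held an array whose gap to the next was over the 95% limit of Dixon's test, and chance gives such a gap in about 1 set in 20. They were FABP6 after 7.4 Gy on day 7 (gap 0.890 of the range; 1.78 against a next value of -1.63), FGF19 after 7.4 Gy on day 4 (0.830; -4.0 against -3.56, a spot not well above background) and NR1H4 after 6.7 Gy on day 7 (0.885; 1.33 against 0.76).

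In 4 cases every array of one group lay on the other side of the control mean from every array of another. FGF19 on day 12 lay above the control mean after 6.7 Gy and below it after 7.4 Gy, a difference of -1.33 that is given with no test, since its probe was well above background throughout in 6.7 Gy day 12 only and on 1 of 2 arrays after 7.4 Gy. With a common floor for dim spots both differences from control were 0. NR1H4 lay below the control mean on day 4 and above it on day 7 after 6.7 Gy (0.79, adjusted p = 0.0874) and on day 12 after 6.7 Gy (0.58, adjusted p = 0.357) and 7.4 Gy (1.08, adjusted p = 0.0620).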

How the results depend on the processing

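The FABP6 difference from control stayed above 0 in all groups under all alternatives except on day 7 after 7.4 Gy with slide as a fixed block (-0.01). On day 4 it moved by over 1 SD after 6.7 Gy to 2.69 with slide as a fixed block, 6.84 (position as a block) and 3.11 with a scan day block or on scan day 1 arrays alone, and after 7.4 Gy to 7.05 (slide fixed) and 6.63 with a scan day block or on scan day 1 arrays alone. With 1 array left out it ran from 4.26 to 6.07 and 3.48 to 5.55 on day 4, 1.02 to 2.71 and 0.30 to 1.57 on day 7, and 7.09 to 7.58 and 3.03 to 3.51 on day 12. The FABP6 dose difference on day 4 (-0.36) turned to 1.5 with position as a block, 1.29 without slide 5 and 3.52 on scan day 1 arrays alone, and with 1 array left out it ran from -1.49 to 0.58; that on day 7 ran from -1.81 to 0.18, turning when replicate 3 after 6.7 Gy was left out. No alternative made an FABP6 dose or day difference pass. Leaving out slide 5 and using scan day 1 alone were chosen after seeing the data.

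SLC10A2 after 6.7 Gy on day 4 read 0.78 with normexp. Of the listed genes, 11 passed on day 4 after 6.7 Gy and 12 after 7.4 Gy, 1 on day 7 at each dose and 0 on day 12. On day 4 these became, with 6.7 Gy first, 5 and 7 (common floor), 0 and 0 (slide as a fixed block), 5 and 5 (scan day as a block), 5 and 4 without a filter on dim probes and 6 and 4 on scan day 1 arrays alone; after 6.7 Gy they became 4 with position as a block and 5 with the methods' t-test. Day 7 gave after 6.7 Gy 0 with a common floor, slide as a fixed block or the methods' t-test and 2 with slide as a random block, and after 7.4 Gy 3 with normexp, 2 with the percentile over detected probes, 3 with slide as a random block and 8 with all arrays in 1 model. The last setting gave 1 on day 12 after 6.7 Gy. With 1 array left out the counts were 7 to 12 and 9 to 13 on day 4, and 1 to 1 and 1 to 5 on day 7. No called listed gene changed direction. With slide as a fixed block only 5 of all 28171 probes passed on day 4 after 6.7 Gy and 0 after 7.4 Gy, so the absence of listed calls there is not particular to the lists.

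With the replicate block the FABP6 differences on day 4 were 4.97 and 4.61, and listed calls were 4 and 6 on day 4 and 0 and 0 on day 7. Of the 10 symbols most like FABP6, 8 were kept with Spearman's rho, 4 without slide 3 and 7 to 9 without another slide. Blocks that left a comparison without an estimate (position for most, slide and scan day for 7.4 Gy day 12 against control) were not run. With only the compared groups in the fit (for the listed genes, an alternative chosen after seeing the data), calls over all probes from day 4 to day 7 went from 436 to 149 after 6.7 Gy and 463 to 12 after 7.4 Gy, and from day 4 to day 12 from 268 to 0 and 681 to 4. Each day 12 group held 2 arrays, and SLC10A2 and FGF19 were well above background on 16 and 18 of 24 arrays.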
